A study of Homo sapiens with 16 samples.

Results

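LINC genes are human genes for long intergenic noncoding RNAs that carry a serial number in place of a functional name. The set described here holds the 205 LINC genes whose normalized read count averaged at least 10 over the 6 libraries of the sorafenib and DMSO experiment, out of 2128 LINC genes and 59609 genes listed. The series profiled cells labelled Huh7, a line established from a human hepatocellular carcinoma and known to make albumin and alpha-fetoprotein. The markers went against this label: of 18 hepatocyte markers, 15 averaged under 10 in the sorafenib and DMSO libraries, with ALB, APOB, FGG, FOXA2 and APOH at 0. RNA-seq of polyadenylated RNA covered 3 libraries of cells treated with sorafenib, a multikinase inhibitor used in liver cancer, against 3 libraries of cells given its solvent DMSO. A second RNA-seq experiment covered 3 libraries with overexpression of MT1G, a metallothionein that binds zinc and other metals, against 3 libraries with the empty vector. ATAC-seq, which reads open chromatin, covered 2 sorafenib libraries and 2 DMSO libraries. The dose and duration of sorafenib and the promoter of the MT1G vector are not given in the sources used here. The labels do not say that replicates came from separate cultures, so p-values measure only the spread between these libraries.

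Long noncoding RNAs are transcribed mostly by RNA polymerase II and are often capped, spliced and polyadenylated like messenger RNAs, without coding for a known protein. Many are present at a low level per cell, remain in the nucleus and are restricted to a few cell types. Some act on a neighbouring gene, some bind proteins or other RNAs, and most LINC genes have no described role.

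The choice of members used the mean over both groups of the sorafenib experiment, not the direction of a difference: members were chosen by the size of this mean. A gene with few reads in 1 group could still enter through the other group, and such a gene had to differ. Of the 205 members, 149 averaged at least 10 in both groups, 48 did so only with sorafenib and 8 only with DMSO. Counts of members that passed the test are therefore a description, read beside the share of all genes tested. The p-values of members that averaged at least 10 in only 1 group are likewise a description and not support. All 205 members were tested in the sorafenib experiment and 148 of them in the MT1G experiment, where 57 fell under the same minimum. The members just over the minimum were LINC01968, LINC02158 and LINC01275 with means of 10.03, 10.09 and 10.2. Those just under it were LINC02243, LINC01424 and LINC02475 with means of 9.68, 9.63 and 9.58.

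Reads assigned to genes ran from 16549330 to 26781600 per RNA library, and the range of the sorafenib libraries (16549330 to 21082356) overlapped that of the DMSO libraries (18243722 to 21074785). MT1G, the overexpressed gene, had 149.9 ± 25.9 normalized read counts in MT1G overexpression libraries and 0 in every empty vector library. In the sorafenib experiment, normalized separately, MT1G had 180.4 ± 19.8 in sorafenib libraries and 0 in every DMSO library (SD, n = 3 each). The 18 hepatocyte markers together had 6782 to 7119 normalized read counts in sorafenib libraries against 17217 to 18275 in DMSO libraries, nearly all from HNF4A, FOXA1 and CPS1. The 4 epithelial markers summed to 28233 to 30178 with sorafenib and 37522 to 46506 with DMSO, and 3 of them fell. The 8 mesenchymal or stellate markers summed to 5465 to 5696 with sorafenib and 7556 to 7958 with DMSO, with 1 of the 7 tested higher and 4 lower. The part of such shifts in the results for LINC genes was not tested.

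With sorafenib, LINC transcripts took a larger share of the RNA and more LINC genes were detected. At least 1 read was found for 733, 711 and 658 LINC genes in the sorafenib libraries, against 451, 457 and 447 in the DMSO libraries. The groups did not overlap. The number of all genes with a read moved the same way, with 24454 to 25652 in sorafenib libraries and 21330 to 22202 in DMSO libraries. LINC genes held 0.144% ± 0.00226 of normalized read counts in sorafenib libraries and 0.0905% ± 0.00325 in DMSO libraries (SD, n = 3 each). The members alone summed to 23617 ± 369.7 normalized read counts in sorafenib libraries and 17949 ± 240.2 in DMSO libraries (SD, n = 3 each). Mitochondrial transcripts moved the other way, at 3.50% ± 0.128 of the total in sorafenib libraries and 4.88% ± 0.185 in DMSO libraries, and their part in these shares was not tested.

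In the MT1G experiment, LINC genes with a read numbered 464, 428 and 503 in the MT1G overexpression libraries, against 415, 424 and 413 in the empty vector libraries. Each MT1G overexpression library was above every empty vector library, and the highest number came from the library with the most reads. All genes with a read numbered 20878, 20625 and 22220 with MT1G overexpression, against 20645, 20914 and 20244 with the empty vector, and these groups overlapped. The share of LINC transcripts was 0.0953% ± 0.00214 with MT1G overexpression and 0.0859% ± 0.00176 with the empty vector (SD, n = 3 each). In bulk RNA, a change in the number of cells that make a transcript and a change in its level per cell cannot be told apart.

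**Figure D1:**
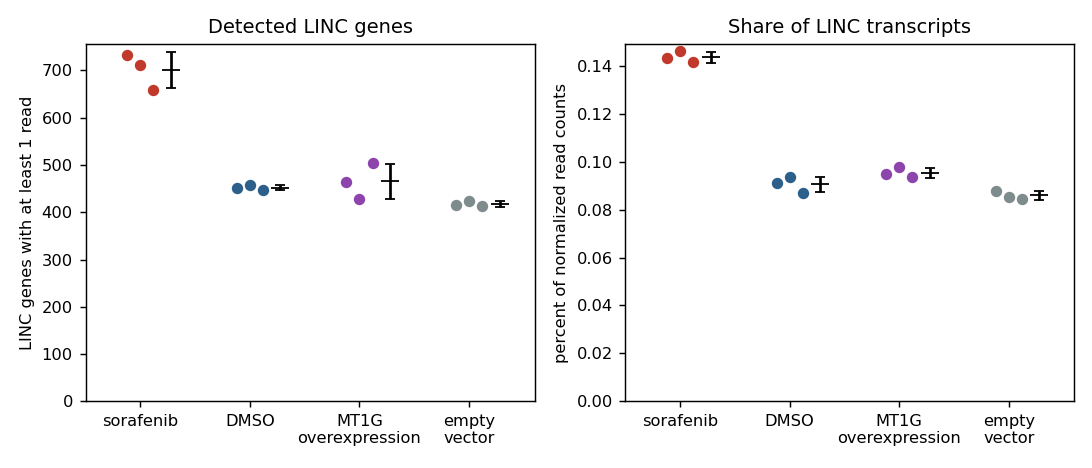
LINC genes with at least 1 read (left) and the share of normalized read counts from LINC genes in percent (right), by group. Points are libraries and bars are the mean with SD (n = 3); the sorafenib libraries lie above all others in both panels, at 658 to 733 detected LINC genes.

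Among the 205 members, 112 (54.6%) were higher and 28 (13.7%) were lower with sorafenib than with DMSO, and 65 (31.7%) did not pass the test. The test was limma on log2-transformed normalized read counts with 1 added, with p-values adjusted by Benjamini and Hochberg over all 14915 genes tested and a threshold of 0.05. Of all genes tested, 34.4% were higher and 35.8% lower. The median log2 change was 0.70 over the members, with quartiles of 0.08 and 1.64, and -0.02 over all genes tested. Members that passed as higher had a median log2 change of 1.46 and those that passed as lower had -1.04. Between groups that did not overlap, all 3 sorafenib libraries stood above all 3 DMSO libraries for 118 members and below them for 30, where the background was 35.8% and 37.2% of genes.

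Most LINC genes have few reads, so the members were also set beside genes of the same mean. At a mean from 10 to 100, 83 of 154 members (53.9%) were higher and 19 (12.3%) lower, beside 41.9% and 16.5% of all genes in that range. At a mean of at least 100, 29 of 51 members (56.9%) were higher and 9 (17.6%) lower, beside 31.5% and 43.6% of genes. Among members over 10 in both groups, 70 of 149 were higher and 22 were lower. A change of at least 1 on the log2 scale was reached by 79 of the higher and 15 of the lower members. The share of all genes was not computed for either of these limits, so these counts have no background beside them. In all 13 other fits, which changed the scaling, filter, pseudocount, tool or block or left out 1 library, 99 of the 112 higher members and 19 of the 28 lower members still passed at the same minimum.

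**Figure D2:**
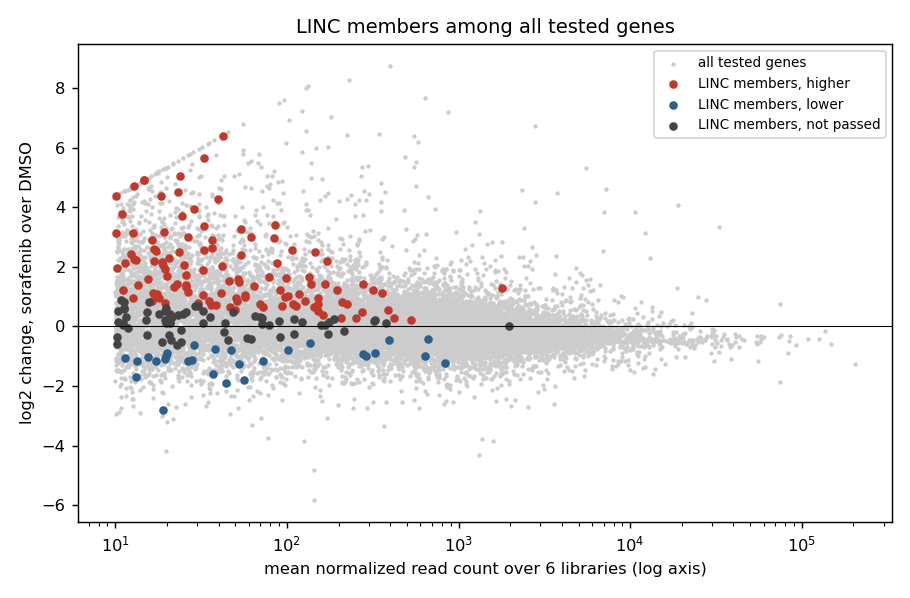
Log2 change, sorafenib over DMSO, against the mean normalized read count over 6 libraries on a log axis. Grey points are all 14915 genes tested and large points are the 205 LINC members; 112 red points are higher, 28 blue points lower and 65 dark points did not pass, and the line of points at the upper left edge is genes with 0 reads in DMSO libraries.

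The largest rises were in LINC RNAs with almost no reads in DMSO libraries. Each of the 8 largest rises among members whose groups did not overlap exceeded 4 on the log2 scale, and 4 of these genes had no read in any DMSO library. A log2 change fitted against 0 reads depends on the pseudocount of 1, so for these genes the fold is also given as a bound against a floor of 3 reads over the DMSO group. All 8 averaged under 10 in DMSO libraries and became members through the sorafenib libraries, so they had to differ. Their p-values are given as a description only.

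LINC02757 (chr11:76607357-76630422 in GRCh38.p14) had 66.7, 96.9 and 89.7 normalized read counts in the sorafenib libraries, against 0, 0 and 0 in the DMSO libraries. Every sorafenib library held reads and no DMSO library did, which is at least 79.3-fold higher (log2 change 6.40, SE 0.41, limma adjusted p = 9.15e-10). It was the largest rise among the members. The same pattern was seen for LINC01647 (chr1:11609531-11613355) with 27, 29.9 and 31 normalized read counts in the sorafenib libraries, against 0, 0 and 0 in the DMSO libraries. That difference is at least 27.6-fold. LINC01882 (chr18:12739486-12749422) had 26.2, 35.3 and 26.7 normalized read counts in the sorafenib libraries, against 0, 0 and 0 in the DMSO libraries, and LINC02872 (chr9:87148644-87159726) had 21.9, 32.6 and 22.4 normalized read counts in the sorafenib libraries, against 0, 0 and 0 in the DMSO libraries. Both were present in each sorafenib library alone, at least 27.9-fold and 24.4-fold higher. Another member, LINC02158, also had no DMSO read and was at least 18.8-fold higher, with a mean close to the minimum for membership.

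The other 4 of the 8 had a few reads in DMSO libraries. LINC00973 (chr3:98914566-98998841) had 76, 67 and 52.3 normalized read counts in the sorafenib libraries, against 1.12, 0 and 0 in the DMSO libraries. Only 1 read was found over all 3 DMSO libraries, and the ratio was 188 (95% counting interval 33.3 to 7450.2). LINC02605 had 43, 44.4 and 53.4 normalized read counts in the sorafenib libraries, against 0, 1.93 and 0 in the DMSO libraries. It too lay far above DMSO in every sorafenib library, with a ratio of 66.1 (95% counting interval 18 to 551) over 2 DMSO reads. LINC01686 (chr1:182615140-182616629) had 39.7, 48 and 48.1 normalized read counts in the sorafenib libraries, against 0, 0.964 and 3.27 in the DMSO libraries (log2 change 4.50, SE 0.50, limma adjusted p = 6.22e-07). LINC02321 (chr14:90820073-90828174) had 39.7, 35.3 and 32 normalized read counts in the sorafenib libraries, against 0, 0 and 4.37 in the DMSO libraries (log2 change 4.38, SE 0.59, limma adjusted p = 5.72e-06). In both, the lowest sorafenib library was well above the highest DMSO library. No role is given here for these 8 RNAs.

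Start regions of 4 of these genes are printed beside their open chromatin values. A start region was also available for LINC02321, and its sequence and peak values are not given here. Each runs from 250 bases before to 50 bases after the annotated start and is read 5′ to 3′ on the strand of the gene, with the 50 bases from the start onward in capitals. The sequences are those of RefSeq for GRCh38.p14, at chr3:98914316-98914615 (plus strand) for LINC00973, chr18:12749373-12749672 (minus strand) for LINC01882, chr9:87148394-87148693 (plus strand) for LINC02872 and chr1:182614890-182615189 (plus strand) for LINC01686.
LINC00973: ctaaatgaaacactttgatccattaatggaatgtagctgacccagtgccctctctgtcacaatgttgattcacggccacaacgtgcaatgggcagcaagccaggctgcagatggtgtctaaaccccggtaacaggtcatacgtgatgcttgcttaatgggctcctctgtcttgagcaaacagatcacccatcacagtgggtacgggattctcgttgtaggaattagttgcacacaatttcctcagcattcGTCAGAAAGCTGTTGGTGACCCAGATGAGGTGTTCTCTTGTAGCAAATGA
LINC01882: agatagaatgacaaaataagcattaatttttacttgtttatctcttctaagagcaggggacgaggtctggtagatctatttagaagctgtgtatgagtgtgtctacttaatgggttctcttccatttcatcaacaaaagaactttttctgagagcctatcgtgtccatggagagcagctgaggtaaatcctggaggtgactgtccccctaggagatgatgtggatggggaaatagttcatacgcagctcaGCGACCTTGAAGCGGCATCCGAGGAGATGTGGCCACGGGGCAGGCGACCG
LINC02872: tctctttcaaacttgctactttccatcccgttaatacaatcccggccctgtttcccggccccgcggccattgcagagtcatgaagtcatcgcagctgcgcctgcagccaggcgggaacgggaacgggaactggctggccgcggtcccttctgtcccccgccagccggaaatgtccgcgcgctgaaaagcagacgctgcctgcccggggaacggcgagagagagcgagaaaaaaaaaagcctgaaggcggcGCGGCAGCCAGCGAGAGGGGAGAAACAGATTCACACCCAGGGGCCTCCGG
LINC01686: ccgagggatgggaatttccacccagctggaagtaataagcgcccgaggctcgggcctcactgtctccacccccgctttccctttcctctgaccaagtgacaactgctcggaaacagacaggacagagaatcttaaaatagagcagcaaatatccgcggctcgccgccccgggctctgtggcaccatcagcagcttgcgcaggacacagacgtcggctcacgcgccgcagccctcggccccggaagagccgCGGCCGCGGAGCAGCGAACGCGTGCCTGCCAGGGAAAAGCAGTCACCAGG
The GC content of these windows was 47.7%, 46.3%, 62.7% and 63.0% in the order printed, and the median was 61.0% over the 150 members with such a window and 58.3% over 27305 start regions in the table.

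The start of LINC00973 overlapped an ATAC-seq peak in all 4 libraries, with a fold enrichment over local background, as the authors' peak caller gave it, of 4.68 and 5.33 in the sorafenib libraries and 11 and 16.9 in the DMSO libraries. The values were thus lower in both sorafenib libraries while its RNA was higher. At the start of LINC01882, no peak was called in either sorafenib library, and the DMSO libraries had peaks of 6.19-fold and 7.55-fold. LINC01686 had 8.71 and 9.33 in the sorafenib libraries and 6.47 and 7.40 in the DMSO libraries, and LINC02872 had 9.56 and 10.8 in the sorafenib libraries and 11.5 and 15.2 in the DMSO libraries. The starts of LINC02872 and LINC01686 were thus in peaks in both DMSO ATAC-seq libraries, while the 3 DMSO RNA-seq libraries held 0 and 4 reads of these RNAs.

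The falls were smaller and none ended at 0. LINC00942 (chr12:1500491-1504424) had 0.844, 8.15 and 5.34 normalized read counts in the sorafenib libraries, against 37.1, 24.1 and 38.2 in the DMSO libraries (log2 change -2.82, SE 0.50, limma adjusted p = 0.000109). The sorafenib libraries were all below the DMSO libraries but spread widely among themselves. LINC00689 (chr7:159008354-159026238) had 30.4, 22.7 and 20.3 normalized read counts in the sorafenib libraries, against 82.1, 83.9 and 96 in the DMSO libraries (log2 change -1.81, SE 0.21, limma adjusted p = 1.06e-06). LINC00342 (chr2:95807052-95826981) had 11.8, 29.9 and 15 normalized read counts in the sorafenib libraries, against 67.5, 89.7 and 50.2 in the DMSO libraries (log2 change -1.88, SE 0.31, limma adjusted p = 4.99e-05). The groups were apart in both genes, more narrowly in LINC00342.

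LINC01843 had 32.9, 35.3 and 24.6 normalized read counts in the sorafenib libraries, against 68.6, 75.2 and 79.7 in the DMSO libraries (log2 change -1.25, SE 0.20, limma adjusted p = 4.26e-05). LINC02323 had 12.7, 27.2 and 15 normalized read counts in the sorafenib libraries, against 39.4, 52.1 and 77.5 in the DMSO libraries (log2 change -1.59, SE 0.31, limma adjusted p = 0.000246). All sorafenib libraries were again lower, and the DMSO values of LINC02323 varied more than those of LINC01843. LINC01521 and LINC02846 fell by 1.17 and 1.71 on the log2 scale, with means of 16.1 ± 5.80 in sorafenib libraries and 36.8 ± 8.82 in DMSO libraries for the first and 5.99 ± 4.39 in sorafenib libraries and 20.5 ± 9.43 in DMSO libraries for the second (SD, n = 3 each).

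The eighth of the largest falls, LINC02582, was the one with many reads (chr18:73324941-73349889). It had 486, 504 and 509 normalized read counts in the sorafenib libraries, against 1137, 1197 and 1178 in the DMSO libraries. The sorafenib libraries agreed closely with one another and lay far below the DMSO libraries (log2 change -1.23, SE 0.07, limma adjusted p = 1.8e-10).

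**Figure D3:**
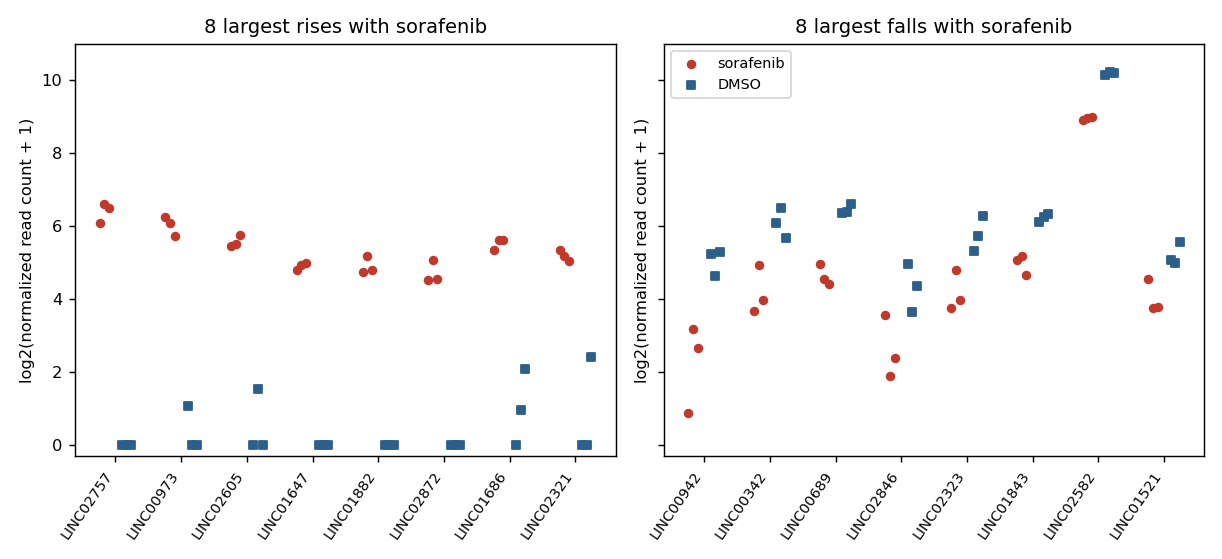
Log2 of normalized read counts, with 1 added, in each library for the 8 largest rises (left) and 8 largest falls (right) with sorafenib among members whose groups did not overlap. Circles are sorafenib libraries and squares DMSO libraries; 4 of the rising genes have all DMSO libraries at 0, and LINC02582 is the only falling gene near 10 on this axis.

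Read counts are not corrected for transcript length, so the members with the highest means are those with the most reads and not necessarily the most molecules. LINC00958, described in hepatocellular carcinoma as an RNA that promotes lipid synthesis, had the most reads. It had 1936, 2005 and 1979.9 normalized read counts in the sorafenib libraries, against 2006, 1975 and 1939 in the DMSO libraries. The groups overlapped and the log2 difference was 0.00, with a 95% interval of -0.12 to 0.12 (limma adjusted p = 0.997).

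LINC01578, listed in RefSeq as CHASERR, lies just upstream of the chromatin remodeller gene CHD2 and is known in mouse to lower the expression of that neighbour. It had 2574, 2595 and 2475 normalized read counts in the sorafenib libraries, against 1045, 1052 and 1054 in the DMSO libraries. The lowest sorafenib library was far above the highest DMSO library (log2 change 1.28, SE 0.06, limma adjusted p = 1.5e-11). CHD2, 1577 bases away, had 2389 ± 108 normalized read counts in sorafenib libraries and 1313 ± 119.5 in DMSO libraries (SD, n = 3 each), a log2 change of 0.87 (limma adjusted p = 2e-08). Both genes of the pair were thus higher with sorafenib. With MT1G overexpression the log2 change of CHD2 was -0.00, and it did not pass.

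The start region of LINC01578 is printed because it was the most read member that rose. It lies at chr15:92882593-92882892 (plus strand), with the 50 bases from the start onward in capitals.
LINC01578: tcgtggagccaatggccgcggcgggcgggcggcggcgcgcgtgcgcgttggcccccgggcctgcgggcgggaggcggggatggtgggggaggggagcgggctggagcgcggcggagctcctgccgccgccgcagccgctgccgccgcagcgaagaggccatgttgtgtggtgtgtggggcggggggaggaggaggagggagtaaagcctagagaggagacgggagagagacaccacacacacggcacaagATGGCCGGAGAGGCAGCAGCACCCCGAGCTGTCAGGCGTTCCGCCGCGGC
Its GC content of 74.7% was the highest of the start regions printed here, and it held 36 CG pairs. The peak at this start had fold enrichments of 18.8 and 18.9 in the sorafenib libraries and 16.5 and 20.9 in the DMSO libraries, with the sorafenib values between the DMSO values.

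Of the next members by reads, 3 fell, 3 rose and 1 did not pass. LINC02733 had 441, 396 and 429 normalized read counts in the sorafenib libraries, against 857, 919.7 and 764 in the DMSO libraries (log2 change -1.0, SE 0.08, limma adjusted p = 2.71e-08). LINC00707 had 517, 617 and 559.6 normalized read counts in the sorafenib libraries, against 770.5, 785 and 713 in the DMSO libraries (log2 change -0.42, SE 0.08, limma adjusted p = 0.000226). LINC01537 had 309.7, 329 and 359.9 normalized read counts in the sorafenib libraries, against 457, 466 and 447 in the DMSO libraries (log2 change -0.46, SE 0.09, limma adjusted p = 0.000194). Sorafenib libraries were below DMSO libraries without overlap in all 3 of these genes, by the widest margin in LINC02733. LINC02693 had 488, 419 and 469 normalized read counts in the sorafenib libraries, against 333, 283 and 324 in the DMSO libraries (log2 change 0.55, SE 0.09, limma adjusted p = 7.95e-05), and LINC01278 had 458, 479 and 445 normalized read counts in the sorafenib libraries, against 359, 402 and 371 in the DMSO libraries (log2 change 0.29, SE 0.08, limma adjusted p = 0.0059). LINC00667 had 592, 602 and 520.1 normalized read counts in the sorafenib libraries, against 484, 506 and 480.2 in the DMSO libraries (log2 change 0.22, SE 0.08, limma adjusted p = 0.0258). The groups were apart in each, but LINC00667 rested on a small margin: its adjusted p was 0.0928 without the first sorafenib library, 0.119 without the second sorafenib library 0.0719 without the first DMSO library and 0.0554 with no filter on low values. LINC01234 had a log2 difference of 0.11, with a 95% interval of -0.08 to 0.29, and did not pass.

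**Figure D4:**
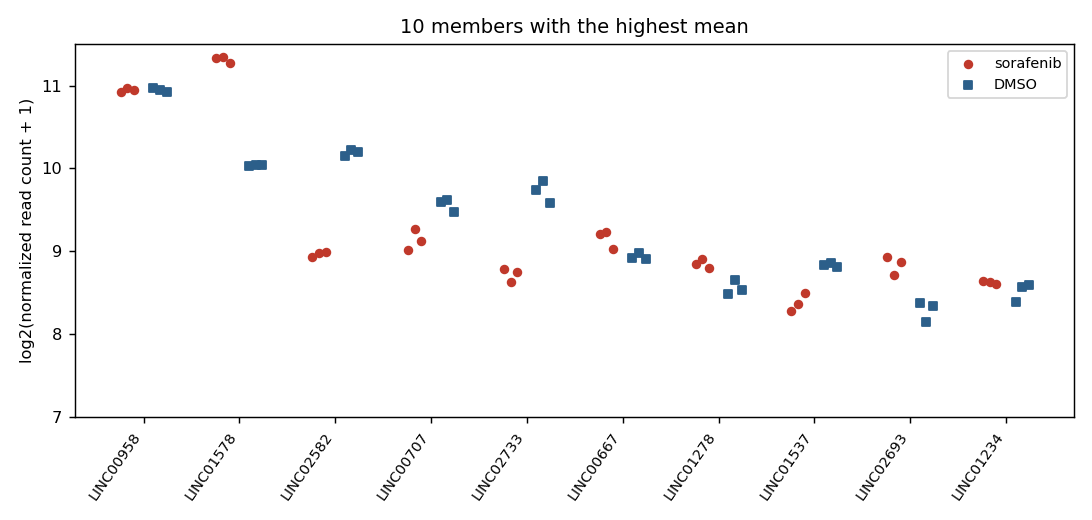
Log2 of normalized read counts, with 1 added, in each library for the 10 members with the highest mean, in falling order of the mean. Circles are sorafenib libraries and squares DMSO libraries, and the axis starts at 7; LINC00958 overlaps between groups, LINC01578 is higher with sorafenib, and LINC02582 and LINC02733 are lower by the widest margins.

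A list of 42 LINC RNAs studied in liver cancer or with a described role held 25 members. Of these, 15 rose, 4 fell and 6 did not pass, with a median log2 change of 0.66. Over all 205 members 54.6% were higher and 13.7% lower, with a median log2 change of 0.70. The shares of all genes tested were 34.4% and 35.8%. LINC01138, which is described in hepatocellular carcinoma as binding and stabilising the arginine methyltransferase PRMT5, had 242, 251 and 242 normalized read counts in the sorafenib libraries, against 93.4, 85.8 and 91.7 in the DMSO libraries (log2 change 1.43, SE 0.12, limma adjusted p = 1.54e-08). LINC00641 had 143, 178 and 127 normalized read counts in the sorafenib libraries, against 41.6, 53 and 46.9 in the DMSO libraries (log2 change 1.64, SE 0.17, limma adjusted p = 2.92e-07). LINC00511, studied in breast and other cancers, had 184, 211 and 204 normalized read counts in the sorafenib libraries, against 106, 109.9 and 93.9 in the DMSO libraries (log2 change 0.95, SE 0.12, limma adjusted p = 4.28e-06). In these 3 genes every sorafenib library was well above every DMSO library.

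LINC01554, described in hepatocellular carcinoma as promoting the degradation of pyruvate kinase M2, had 16.9, 23.6 and 23.5 normalized read counts in the sorafenib libraries, against 4.50, 1.93 and 3.27 in the DMSO libraries (log2 change 2.43, SE 0.42, limma adjusted p = 8.56e-05). LINC00920 had 69.2, 58 and 64.1 normalized read counts in the sorafenib libraries, against 11.2, 8.68 and 8.73 in the DMSO libraries (log2 change 2.62, SE 0.26, limma adjusted p = 1.59e-07). LINC02163 had 119.8, 126 and 115 normalized read counts in the sorafenib libraries, against 43.9, 36.6 and 31.6 in the DMSO libraries (log2 change 1.67, SE 0.17, limma adjusted p = 3.23e-07). These too did not overlap between groups, and LINC01554 had few reads in either group. LINC00882, LINC00847 and LINC00467, the last described as repressed by MYCN in neuroblastoma, rose by 2.90 ± 0.44, 1.89 ± 0.39 and 0.66 ± 0.16 (log2 change ± SE). LINC00665 rose by 0.50 ± 0.12 and LINC00520 by 2.06 ± 0.42 on the same scale, and both are taken up again with MT1G. LINC00662 passed with a log2 change of 0.28 ± 0.10 (SE), but not without the second sorafenib library (adjusted p = 0.0926), the third sorafenib library (0.0724) or the first DMSO library (0.0907), nor with no filter on low values (0.0520) or by DESeq2 (0.0531).

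The 4 members of the list that fell were LINC00205, LINC00963, LINC00707 and LINC00342. LINC00205 had 207, 202 and 172 normalized read counts in the sorafenib libraries, against 378, 349 and 366 in the DMSO libraries (log2 change -0.91, SE 0.10, limma adjusted p = 6.79e-07). LINC00963, described in prostate cancer, had 242, 224 and 211 normalized read counts in the sorafenib libraries, against 396, 442 and 429 in the DMSO libraries (log2 change -0.90, SE 0.09, limma adjusted p = 3.27e-07). Both were lower in every sorafenib library and fell by a similar amount. LINC00205 starts close to POFUT2, an enzyme gene read on the other strand from a neighbouring start, whose log2 change was 0.66 in the opposite direction (limma adjusted p = 8.9e-06).

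The members of the list that did not pass were LINC00958, LINC01234, LINC00857, LINC00339, LINC00460 and LINC01134. LINC00857 was measured with many reads, and its log2 difference of 0.05 had a 95% interval of -0.21 to 0.32. For LINC00339, LINC00460 and LINC01134 the intervals were wide, at -1.59 to 0.40, -1.28 to 0.59 and -0.15 to 1.92. For comparison, a list of 60 long noncoding RNAs with other names had 43 tested, of which 20 were higher and 9 lower, with a median log2 change of 0.28.

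With MT1G overexpression few LINC members changed. Of the 148 members tested, 8 (5.41%) were higher and 4 (2.70%) lower than with the empty vector, and 136 did not pass, where 11.5% and 11.3% of all 13914 genes tested were called. The median log2 change was 0.05 over the members and 0.00 over all genes tested. At a mean from 10 to 100, 5 of 111 members were higher and 3 lower, beside 7.6% and 3.43% of genes. Of the members with a mean of at least 100, 3 of 37 were higher and 1 was lower, beside 12.9% and 14.1% of genes. This experiment played no part in choosing the members. The same minimum applied to its own mean over both groups, so a member with few reads in 1 group could be tested through the other. The p-value of such a member is a description. Among members that averaged at least 10 in both groups, 5 of 139 were higher and 4 lower, and the share of all genes was not computed for this limit. Cell type markers moved here too. The mesenchymal or stellate markers summed to 10979.9 to 13491 with MT1G overexpression and 6499 to 7255 with the empty vector. Of the 7 tested, FN1, LUM and DCN were higher, and VIM, COL1A1, COL3A1 and PDGFRB did not pass. FN1 alone had 4431 ± 412 normalized read counts with MT1G overexpression and 552.9 ± 20.8 with the empty vector (SD, n = 3 each). The 4 epithelial markers summed to 32817 to 39286 with MT1G overexpression and 44436 to 50123 with the empty vector, with 3 lower, and the 18 hepatocyte markers to 16806 to 18762 with MT1G overexpression and 19684 to 20159 with the empty vector. Their part in the results for LINC genes was not tested. The counts depended on single libraries: the 8 higher members became 4, 3 and 8 without the first, the second and the third MT1G overexpression library, and 2, 3 and 5 without the first, the second and the third empty vector library. The 4 lower members became 5, 2 and 4 without those MT1G overexpression libraries and 1, 2 and 2 without those empty vector libraries.

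LINC01895 (chr18:3347703-3350559), near the homeobox gene TGIF1, showed the largest change among the members. It had 36.8, 44.2 and 43.2 normalized read counts in the MT1G overexpression libraries, against 9.87, 8.06 and 10.5 in the empty vector libraries (log2 change 2.02, SE 0.31, limma adjusted p = 8.82e-05). The lowest MT1G overexpression library was far above the highest empty vector library, and this was the only one of the 12 called members that passed in all 13 other fits. Its mean in the empty vector libraries was under 10, so it would not be kept where a mean of at least 10 was asked of both groups. With sorafenib it had 21.1, 14.5 and 27.8 normalized read counts in the sorafenib libraries, against 23.6, 17.4 and 13.1 in the DMSO libraries. Those groups overlapped, and the log2 difference of 0.21 had a 95% interval of -0.49 to 0.91.

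LINC02009 had 79.5, 54.7 and 61.5 normalized read counts in the MT1G overexpression libraries, against 27.4, 35.8 and 43.2 in the empty vector libraries (log2 change 0.87, SE 0.23, limma adjusted p = 0.0116). Its groups did not overlap. The nearest protein-coding gene, CCRL2, which encodes an atypical chemokine receptor, was also higher with MT1G overexpression (log2 change 1.85, limma adjusted p = 0.00298). LINC00339 rose by 1.41 ± 0.48 and LINC01322 by 0.40 ± 0.12 (log2 change ± SE), with adjusted p of 0.0406 and 0.0176 by limma. The call of LINC00339 was lost in 7 of the 13 other fits, among them edgeR and DESeq2. The calls of LINC01322 and LINC02009 were lost in 3 and 2. None of LINC02009, LINC00339 and LINC01322 passed with sorafenib.

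The other 8 members called with MT1G were also called with sorafenib. They were 8 of the 12 members called with MT1G overexpression and 8 of the 93 members called with sorafenib that were tested in both, or 5.41% of the 148 members tested in both, beside 16.9% of all genes tested in both. The experiments had separate control libraries. LINC00472, LINC01806 and LINC00520 were higher in both, and LINC00689 and LINC01182 were lower in both. LINC00665 and LINC02861 were higher with sorafenib and lower with MT1G overexpression, and LINC02582 was the reverse.

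LINC00472, described as a tumour suppressor in breast cancer, had 463, 444 and 425 normalized read counts in the sorafenib libraries, against 173, 194 and 196 in the DMSO libraries (log2 change 1.24, SE 0.09, limma adjusted p = 7.81e-09). In the MT1G experiment it had 171, 197 and 183 normalized read counts in the MT1G overexpression libraries, against 146, 126 and 133 in the empty vector libraries (log2 change 0.44, SE 0.14, limma adjusted p = 0.0257). The groups were apart in both experiments, and the difference was larger with sorafenib in log2 units, although the difference between experiments was not tested. LINC00520 had 32.9, 21.7 and 37.4 normalized read counts in the sorafenib libraries, against 3.37, 13.5 and 5.46 in the DMSO libraries (log2 change 2.06, SE 0.42, limma adjusted p = 0.00041). In the MT1G experiment LINC00520 had 25.8, 27.9 and 12.4 normalized read counts in the MT1G overexpression libraries, against 6.58, 8.06 and 9.33 in the empty vector libraries (log2 change 1.29, SE 0.40, limma adjusted p = 0.0246). The third MT1G overexpression library was close to the empty vector libraries. LINC00520 averaged under 10 in the DMSO libraries and in the empty vector libraries. It was tested in each experiment through the group where it was higher, so its p-values are a description and not support. LINC01806 had 134, 101 and 110.0 normalized read counts in the sorafenib libraries, against 73.1, 64.6 and 76.4 in the DMSO libraries (log2 change 0.67, SE 0.16, limma adjusted p = 0.00122). LINC01806 had 75.5, 67.4 and 84.9 normalized read counts in the MT1G overexpression libraries, against 42.8, 57.3 and 51.3 in the empty vector libraries (log2 change 0.58, SE 0.20, limma adjusted p = 0.0396). With MT1G overexpression the call of LINC01806 was lost in 9 of the 13 other fits, among them edgeR, DESeq2 and each left-out library. The MT1G calls of LINC00472 and LINC00520 were lost in 3 and 4 of the 13.

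LINC00689 fell in both. It had 53.7, 50 and 46.8 normalized read counts in the MT1G overexpression libraries, against 80, 83.3 and 72.3 in the empty vector libraries (log2 change -0.64, SE 0.19, limma adjusted p = 0.02), against a log2 change of -1.81 with sorafenib. LINC01182 had 19.9, 10.5 and 18.3 normalized read counts in the MT1G overexpression libraries, against 37.3, 38.5 and 26.8 in the empty vector libraries (log2 change -1.06, SE 0.32, limma adjusted p = 0.0203). Its groups were apart with MT1G overexpression. The MT1G call of LINC00689 was lost in 2 of the 13 other fits, and that of LINC01182 in 4, among them DESeq2. With sorafenib LINC01182 had 13.5, 9.06 and 6.41 normalized read counts in the sorafenib libraries, against 10.1, 34.7 and 29.5 in the DMSO libraries (log2 change -1.16, SE 0.44, limma adjusted p = 0.0259). There the first DMSO library lay among the sorafenib libraries, and the call was lost without the second or the third library of either group, with an adjusted p from 0.0557 to 0.133.

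The remaining 3 members moved in opposite directions. LINC00665 had 175, 180.3 and 180.5 normalized read counts in the sorafenib libraries, against 138, 119 and 121 in the DMSO libraries (log2 change 0.50, SE 0.12, limma adjusted p = 0.00134). LINC00665 had 126, 127 and 121 normalized read counts in the MT1G overexpression libraries, against 195, 157 and 193 in the empty vector libraries (log2 change -0.53, SE 0.14, limma adjusted p = 0.0108). LINC02861, listed in RefSeq as TRIDDENT, had 61.6, 57.1 and 80.1 normalized read counts in the sorafenib libraries, against 42.7, 26 and 40.4 in the DMSO libraries (log2 change 0.86, SE 0.23, limma adjusted p = 0.00298). LINC02861 had 33.8, 18.6 and 16.1 normalized read counts in the MT1G overexpression libraries, against 35.1, 45.7 and 53.7 in the empty vector libraries (log2 change -0.99, SE 0.30, limma adjusted p = 0.0205). In each, all sorafenib libraries were above all DMSO libraries and all MT1G overexpression libraries below all empty vector libraries. LINC02582 had 2232, 2232 and 1633 normalized read counts in the MT1G overexpression libraries, against 1485, 1596 and 1616 in the empty vector libraries (log2 change 0.36, SE 0.11, limma adjusted p = 0.0221). The third MT1G overexpression library was barely above the highest empty vector library. The MT1G calls of LINC00665, LINC02861 and LINC02582 were lost in 2, 4 and 4 of the 13 other fits.

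**Figure D5:**
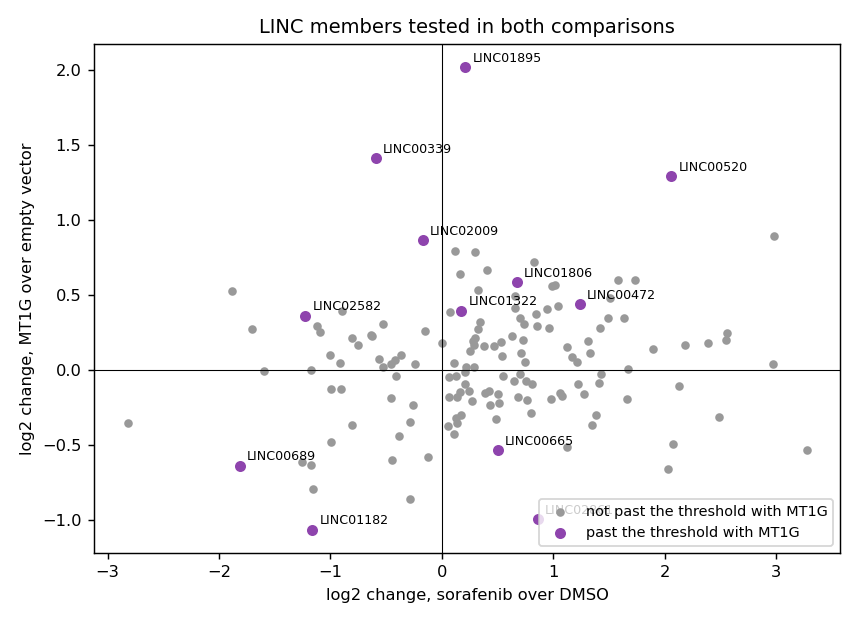
Log2 change of each LINC member tested in both experiments, with sorafenib over DMSO on the horizontal axis and MT1G overexpression over empty vector on the vertical axis. The 148 points are members, and the 12 that passed with MT1G are coloured and named; most points lie to the right of 0 and are spread about 0 vertically.

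The 57 members under the minimum in the MT1G experiment included 45 that were higher and 2 that were lower in the sorafenib experiment. Among all 205 members, 48 averaged at least 10 only with sorafenib and had to differ. The choice of members can therefore set part of this split. Of the 57, 2 had no read in any library of the MT1G experiment. A further 6 LINC genes averaged at least 10 in the MT1G experiment and not in the sorafenib experiment, and none of them passed the test.

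Chromatin was compared at the places of 203 members, of which 183 were matched to RefSeq by symbol and 20 by an older name. Per library, 139294 and 135671 peaks were called with sorafenib and 131239 and 156760 with DMSO on the autosomes, X and Y, and peaks sharing at least 1 base were merged into regions. A region was counted as gained when it had a peak in both sorafenib libraries and in neither DMSO library, and as lost in the reverse case. The labels number the sorafenib ATAC-seq libraries 3 and 4 and the DMSO ones 1 and 2. These lists give no test of a difference with 2 libraries a group.

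Within 2 kb of the gene, 27 of 203 members (13.3%) had a gained region, 63 (31.0%) a lost one and 173 (85.2%) one open in all 4 libraries. The same shares of all tested genes with a place were 17.7%, 32.8% and 94.2%. Gained regions were near 16 of 111 members whose RNA rose, 3 of 28 whose RNA fell and 8 of 64 that did not pass. Lost regions were near 32, 9 and 22 members of these same groups.

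At the start itself, the window from 250 bases before to 50 bases after, 102 of 150 members (68.0%) lay in a region open in all 4 libraries and 36 (24.0%) had no peak. Among all tested genes with such a window these shares were 84.9% and 11.4%. A region open in all 4 libraries covered the start of 58 of 80 members whose RNA rose, 13 of 21 whose RNA fell and 31 of 49 that did not pass. No member had a gained region at its start, where 0.284% of genes did, and 5 members (3.33%) had a lost one, where 0.548% of genes did. Named after their values were seen, these 5 were LINC01882, LINC00638, LINC02351, LINC01391 and LINC01588. In 3 of them the RNA rose, with log2 changes of 4.91, 1.94 and 0.95, and 0.43 and 0.33 in the others did not pass. Fold enrichments of the lost peaks were from 2.80 to 7.55 in the DMSO libraries.

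Short motifs were searched on both strands of the 150 start windows. The AP-1 letters TGACTCA were in 15 windows (10%), against 4.92% of 27305 windows in the RefSeq table and 3.19% of 10392 windows of tested genes. By RNA they were in 7 of 80 windows of members that rose (8.75%), 3 of 21 that fell (14.3%) and 5 of 49 that did not pass (10.2%). The CRE letters TGACGTCA, which cannot share a full match with TGACTCA, were in 4 member windows (2.67%), 1.98% of all windows and 3.33% of windows of tested genes. Cores of the metal response element were in 18 member windows for TGCACNC (12%) and 24 for TGCGCNC (16%), against 11.9% and 20% of all windows and 11.3% and 31.1% of windows of tested genes. The TATA letters TATAAA were in 20 member windows (13.3%), 12% of all windows and 5.70% of windows of tested genes. A match describes letters and not a bound site.

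LINC00702 is printed as a rising member of the role list whose window held the AP-1 letters, in capitals, beginning at base 15 counted from the start. Its window lies at chr10:4243863-4244162 (minus strand) in GRCh38.p14. Of the same list, LINC00963, which fell, and LINC00339 and LINC00460, which did not pass, also held these letters.
LINC00702: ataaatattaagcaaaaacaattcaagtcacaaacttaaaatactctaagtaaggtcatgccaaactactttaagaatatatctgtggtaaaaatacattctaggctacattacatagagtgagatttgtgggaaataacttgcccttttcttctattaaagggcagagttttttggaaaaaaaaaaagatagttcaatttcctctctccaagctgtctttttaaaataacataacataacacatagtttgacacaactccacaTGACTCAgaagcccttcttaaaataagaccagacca
LINC00702 had 26.2, 18.1 and 19.2 normalized read counts in the sorafenib libraries, against 1.12, 0.964 and 0 in the DMSO libraries. All sorafenib libraries were far above DMSO libraries that held 2 reads in all, a ratio of 30.4 (95% counting interval 8.11 to 256). The peak at its start had fold enrichments of 11.7 and 11.8 in the sorafenib libraries and 9.53 and 12.3 in the DMSO libraries, which overlapped between groups.

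Neighbouring protein-coding genes moved with some members and not with others. The nearest one was tested and lay within 100 kb for 116 members. Next to the 61 of these members that rose, 21 neighbours were higher and 24 lower. Next to the 19 that fell, 5 neighbours were higher and 13 lower. The shares of all genes tested with sorafenib were 34.4% higher and 35.8% lower. Across the 116 pairs, which come from the same libraries, Pearson's r of the log2 changes was 0.16 and Spearman's rho was 0.14. With MT1G overexpression r was 0.35 and rho was 0.31 across 86 pairs.

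Beside the 8 largest rises, RGS16, a regulator of G protein signalling 10751 bases from LINC01686, rose with a log2 change of 3.51 (limma adjusted p = 3.28e-10). IL7, a cytokine gene near LINC02605, rose by 1.15 on the log2 scale (adjusted p = 0.000385). FBXO2 near LINC01647 fell by 0.73 and GAS1 near LINC02872 fell by 0.41. DCBLD2, PSMG2 and TTC7B near LINC00973, LINC01882 and LINC02321 had log2 changes of -0.13, -0.08 and 0.07 and did not pass. LRRC32 near LINC02757 was under the minimum.

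Beside the 8 largest falls, the neighbour was tested for 6, and its log2 change was negative in each. ERC1, which encodes a scaffold protein and lies 4558 bases from LINC00942, fell by 1.37 on the log2 scale. VIPR2, a receptor of vasoactive intestinal peptide next to LINC00689, fell by 0.87 with sorafenib and by 0.61 with MT1G overexpression (limma adjusted p = 0.0011). JADE2, TMEM250, PATZ1 and ANKRD9 beside LINC01843, LINC02846, LINC01521 and LINC02323 fell by 0.66, 0.53, 0.31 and 0.24. Of all genes tested, 35.8% passed as lower, as did 43.6% of genes with a mean of at least 100. These shares count genes past the threshold, while the 6 falls are counted by sign only. The median log2 change over all genes tested was -0.02. LINC02733 was not among these 8, and its neighbour INCENP, a subunit of the chromosomal passenger complex, fell by 1.03. Neighbours of most other members with many reads are not given here.

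Overlap with other genes limited the reading of many members. In the annotation 101 of 203 members overlap another gene, and the sources used here do not say whether reads were counted by strand, so reads of overlapping genes cannot be told apart. Of these 101 members 61 rose and 11 fell, and of the 102 that overlap no gene 50 rose and 17 fell. LINC01138 overlaps LOC647481 and LOC105371224, LINC00847 overlaps ZFP62, and LINC02158 lies in CCDC13. RefSeq annotates 2 members as protein-coding genes.

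In the authors' deposited table, 96 members had a positive and 21 a negative change at an adjusted p under 0.05 with sorafenib, and 4 and 1 with MT1G overexpression. Of the 140 members called here with sorafenib, 117 were also called in the authors' deposited table, and none had the opposite sign there. With MT1G overexpression the authors' deposited table called 5 of the 12.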

How the data were processed

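RNA-seq of 12 libraries and ATAC-seq of 4 libraries of cells labelled Huh7 were used, grouped by the sample titles. Per the submitters' processing notes, the genome was hg38 and the tools included Bowtie2 2.4.1, DESeq2, HISAT2, MACS2 2.2.7.1, Picard, SAMtools, cutadapt and featureCounts 1.6.1, with no role or order given. The deposited RNA values were a signal: read counts per gene that the authors divided by a size factor per library. They were checked to be whole reads within a tolerance of 0.001 after multiplying by that factor, for 100% of values. The columns show a group but not a sample, so library numbers are those of the columns. The deposited comparison tables hold the authors' log2 fold changes, their standard errors and test score, and p-values. The deposited peak lists, 1 per library, hold the authors' score, the fold enrichment ratio at the summit and the −log10 of p and q.

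Genes with a mean of at least 10 were tested with limma 3.58.1 (trend and robust variance, two-sided, R 4.3.3) on log2-transformed normalized read counts with 1 added, within each table, with Benjamini-Hochberg adjustment over all genes and a threshold of 0.05. The script was tested on simulated data. The members, lists and naming rule were chosen with earlier results of these data known. Genes named were the 10 members with most reads, the 8 largest rises and falls without overlap per comparison, members called in both, those of the role list, and those next to the minimum. Bounds and intervals cover counting error only. Alternatives were TMM factors, no filter, pseudocounts of 0.5 and 5, DESeq2 1.42.0 and edgeR 4.0.16 on recovered reads, a replicate block, each library left out, stricter limits, and other peak and distance settings. Gene places and start sequences came from RefSeq (GRCh38.p14), and 2 members had none.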

Additional observations from a re-analysis of the deposited data

How the results depend on the processing

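In the sorafenib experiment the 112 higher members became 70 when a mean of at least 10 was asked of both groups and 29 at a mean of at least 100, and the 28 lower members became 15 at an absolute log2 change of at least 1 and 9 at a mean of at least 100. These settings test fewer genes or ask for more. Leaving out 1 library gave 101 to 113 higher and 23 to 27 lower members. In the MT1G experiment the 8 higher members became 3 at an absolute log2 change of at least 1, 5 at a mean of at least 10 in both groups and 3 at a mean of at least 100, and the 4 lower members became 1 under the first and 1 under the last of these. Leaving out 1 library gave 2 to 8 higher and 1 to 5 lower members, and the cause was not tested. Members called in both experiments went from 8 to 3 at a mean of at least 100 in both and to 2 at an absolute log2 change of at least 1. Members with a gained region went from 27 to 50 with a window of 10 kb, which covers more sequence. All other settings kept each of these counts within 1.5 times.

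The numbers of the columns did not pair the libraries: the deviations of same-numbered libraries correlated at -0.03, 0.03 and -0.06 with sorafenib and at -0.14, 0.04 and -0.06 in the MT1G experiment. A replicate block gave 112 higher and 27 lower members with sorafenib and 8 and 4 with MT1G overexpression.

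Signs turned only in members that did not pass. With sorafenib LINC00958 had a log2 difference of -0.00931 with TMM factors. Over left-out libraries it ranged from -0.0122 to 0.0140 for LINC00958, from -0.00237 to 0.444 for LINC01895, from -0.283 to 0.0133 for LINC02009 and from -0.0237 to 0.133 for LINC00857. Each called member kept its sign under all fits, and TMM factors moved the median of all genes by less than 0.1. Members with means near 10 rest on few reads per library, and smaller changes were not detectable at this depth.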
